A study of Cucumis sativus and Manihot esculenta and Brachypodium distachyon with 34 samples.

Results

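Phenylalanine ammonia-lyase (PAL) was examined in *Brachypodium distachyon* as a family of 8 genes, chosen by their gene identifiers from the 31694 genes listed in the leaf RNA-seq table of this grass. The study sequenced the methylomes of leaves from many angiosperms, and leaf RNA was sequenced from a subset of the species. The RNA came from leaf tissue of the accession Bd21, with 1 library and no treatment given, and the age and growth of the plants are not given in the sources used here. All 8 members were found, each with a value above 0. Of these, 4 carry neighbouring identifiers on chromosome 3 (Bradi3g49250, Bradi3g49260, Bradi3g49270 and Bradi3g49280), and another 2 neighbour each other on the same chromosome (Bradi3g47110 and Bradi3g47120). The remaining 2 are separate copies, Bradi3g48840 on chromosome 3 and Bradi5g15830 on chromosome 5. With 1 library there is no replicate error, so values, ranks and ratios are given as a description without a test.

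PAL removes the amino group of phenylalanine to give trans-cinnamic acid, the entry step of the phenylpropanoid pathway. From this product plants make lignin, which stiffens the walls of vessels and fibres, as well as flavonoids and the hydroxycinnamates that cross-link the cell walls of grasses. Plants carry several PAL genes, and in grasses some enzymes of the family also accept tyrosine. Which of the 8 genes encode such enzymes is not given in the sources used here, and the members are therefore named by identifier only.

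Most of the summed leaf FPKM of the 8 genes came from 3 of them. Levels are given in FPKM, the fragments per kilobase of transcript scaled to the mapped fragments of the library, a unit per length that allows genes of 1 library to be set beside each other. Bradi3g49260 had the highest level, with 180.6 FPKM, and Bradi3g49250 followed with 148.9 FPKM. Bradi5g15830, on another chromosome, was the third with 86.9 FPKM. A wide gap separated these from the rest of the family, since Bradi3g49280 came next with 9.16 FPKM. Bradi3g48840 had 3.76 FPKM and Bradi3g49270 had 1.92 FPKM. The lowest members were the neighbours Bradi3g47110, with 0.228 FPKM, and Bradi3g47120, with 0.148 FPKM. The ratio of the highest to the lowest member was 1219. No spread between samples is known, so it cannot be said which neighbours in this order would change places in another library. The closest were Bradi3g49260 and Bradi3g49250, with a ratio of 1.21, followed by Bradi3g47110 over Bradi3g47120 with 1.54 and Bradi3g49250 over Bradi5g15830 with 1.71.

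**Figure D1:**
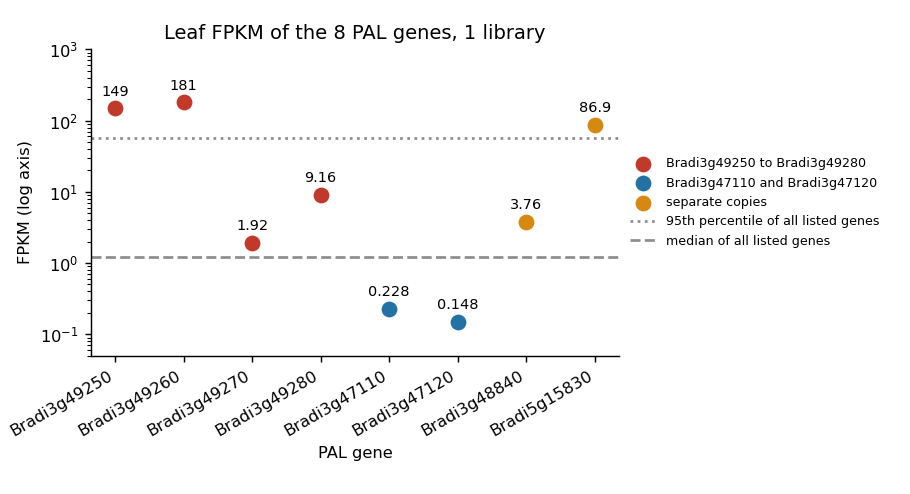
FPKM (log axis) of each PAL gene in the leaf library, 1 point per gene, coloured by neighbouring or separate copies, with dashed and dotted lines at the median and the 95th percentile of all listed genes. Bradi3g49250, Bradi3g49260 and Bradi5g15830 lie above the 95th percentile (57.0 FPKM), and Bradi3g47110 and Bradi3g47120 lie below the median (1.23 FPKM).

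The summed level of the family was 431.6 FPKM, which was 0.0637% of the summed FPKM of all listed genes. Bradi3g49260 made up 41.8% of the family sum, Bradi3g49250 made up 34.5% and Bradi5g15830 made up 20.1%. Together these members held 96.5% of it, and the 5 other genes held 3.53%. By position, the 4 neighbouring copies held 78.9% of the sum, the 2 separate copies 21.0%, and the pair Bradi3g47110 and Bradi3g47120 0.0872%. The paper lists the reads and the mapped share of this library, but the values come without read counts per gene or gene lengths. The exact number of reads behind a single value, such as the low levels of that pair, is therefore unknown. Leaf is a mixture of cell types, and in such a bulk sample a gene used strongly in few cells cannot be told apart from one used weakly in many.

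Within the whole leaf transcriptome, the members ranged from the top 2% of genes to below the median. Bradi3g49260 was at rank 434 from the top among the 31694 genes, above 98.6% of them, and Bradi3g49250 was at rank 554, above 98.3%. Bradi5g15830 was at rank 1042, above 96.7% of the genes. The middle of the family was spread widely, with Bradi3g49280 above 75.5% of the genes, Bradi3g48840 above 62.8% and Bradi3g49270 above 54.7%. Bradi3g47110 was above 36.6% and Bradi3g47120 above 34.1% of the genes. The lower percentages rest largely on genes without a measured level, since 9018 genes, or 28.5%, were listed at 0. Among genes above 0 FPKM, Bradi3g47110 was above 11.3% and Bradi3g47120 above 7.86%. Among genes of at least 1 FPKM, Bradi3g49280 was above 52.7%, Bradi3g48840 above 28.2% and Bradi3g49270 above 12.5%, while Bradi3g49260 was above 97.4%, Bradi3g49250 above 96.6% and Bradi5g15830 above 93.7%. An exact 0 in such a table may stand for a failed estimate, and it is not read as absence of transcript.

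Of the 8 members, 6 had at least 1 FPKM, where 51.8% of all listed genes did. At least 10 FPKM was found in 3 members and in 23.1% of all genes, and at least 100 FPKM in 2 members and in 2.85% of all genes. The median level of the members was 6.46 FPKM, against 1.23 FPKM over all listed genes. The family mean was 54.0 FPKM, far above its median, because 3 genes carried most of the level. The mean of all genes was 21.4 FPKM. With 8 members in 1 library, these shares describe the leaf sampled and nothing was tested.

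**Figure D2:**
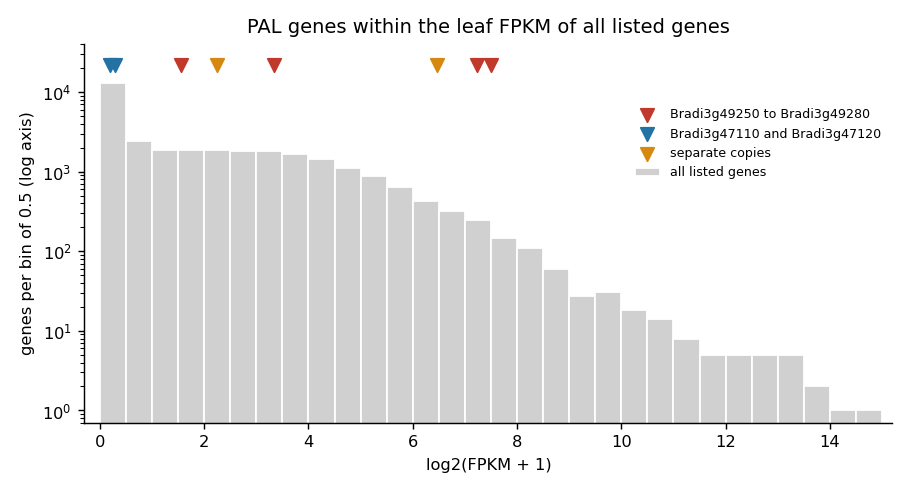
Triangles mark the log2(FPKM + 1) of each PAL gene (horizontal axis) above the histogram of all 31694 listed genes (bars, genes per bin of 0.5, log axis). The PAL genes fall into a high group between 6.46 and 7.50 and a spread of lower members between 0.20 and 3.34.

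The 4 neighbouring copies did not share a level. Bradi3g49260 had 180.6 FPKM and Bradi3g49250 had 148.9 FPKM, a difference of 0.28 on the log2(FPKM + 1) scale. Bradi3g49260 was at 94.0 times the level of Bradi3g49270, the copy listed directly after it, which had 1.92 FPKM. This was the largest difference between these copies, 5.96 on the log2(FPKM + 1) scale. Bradi3g49280 had 9.16 FPKM, which was 4.77 times the level of Bradi3g49270, and Bradi3g49260 was at 19.7 times the level of Bradi3g49280. The high and the low copies thus lay next to each other, with the high ones at the lower locus numbers. Between Bradi3g49250 and Bradi3g49260 the table lists 1 further gene, Bradi3g49255, at 0. What Bradi3g49255 encodes, and whether it overlaps the PAL copies, was not analysed here.

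The other neighbours, Bradi3g47110 and Bradi3g47120, were alike in being low. Their FPKM had a ratio of 1.54, with 784 of the listed genes at levels between theirs. No gene is listed between them. The separate copies differed widely from each other, with 86.9 FPKM in Bradi5g15830 and 3.76 FPKM in Bradi3g48840, a ratio of 23.1. Neither neighbouring nor separate copies therefore had one level in this library. The neighbouring copies included both the highest and the lowest members, and the separate ones lay between them.

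All pairs of genes on the numbered chromosomes were used to set these differences beside those of ordinary neighbours. Across 31674 pairs of genes directly next to each other by locus number, the median absolute difference was 1.59 on the log2(FPKM + 1) scale, with quartiles of 0.42 and 3.19. Bradi3g49270 differed from Bradi3g49260 by 5.96 and from Bradi3g49280 by 1.80 on this scale, while Bradi3g47110 and Bradi3g47120 differed by 0.10. With both of these under 1 FPKM, the added 1 holds their difference near 0, and their ratio of FPKM was 1.54, so no likeness is read from it. Over the 6 pairs among the 4 neighbouring copies the median was 4.02, with a lowest difference of 0.28 and a highest of 5.96. Genes 2 places apart had a median difference of 1.69 over the genome, those 3 places apart 1.74, and those 4 places apart 1.77. The 6 pairs share the same 4 genes and are not independent, and genes are not replicates. For pairs in which both genes had at least 1 FPKM, the median over the genome was 1.51 for direct neighbours.

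**Figure D3:**
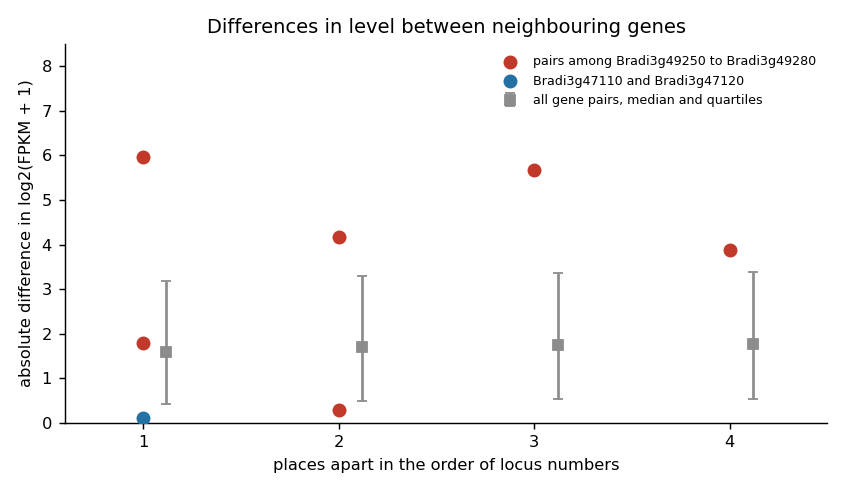
Absolute difference in log2(FPKM + 1) (vertical axis) between genes by the number of places apart in the order of locus numbers (horizontal axis). Points are pairs of neighbouring PAL copies, and squares with bars are the median and quartiles over all gene pairs. Of the 6 pairs among Bradi3g49250 to Bradi3g49280, 4 lie between 3.88 and 5.96, and Bradi3g49250 with Bradi3g49260 lies at 0.28.

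The split of reads between PAL copies is uncertain. Copies of one family can be alike in sequence, and reads that match several copies have to be divided among them. The methods name no setting for such reads, and neither the sequences nor read counts of the genes were used here, so how much the division moved each level was not tested. The near equal levels of Bradi3g49250 and Bradi3g49260, and the values of the low copies beside them, have to be read with this limit.

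Pooled over the 4 loci, the 5 genes on each side had a median close to that of the whole table. This depended on the window, since with 2 genes on each side the median was 0.233 FPKM. It also differed by locus, from 0.549 FPKM around Bradi3g48840 to 5.59 FPKM around the 4 neighbouring copies. The 5 listed genes on each side of each of the 4 loci gave 40 flanking genes, with a median of 1.18 FPKM, where the median of all listed genes was 1.23 FPKM. Of the 40 flanking genes, 10 were listed at 0, where 28.5% of all genes were, and 23 had at least 1 FPKM, where 51.8% of all genes did. At least 10 FPKM was found in 7 of them and in 23.1% of all genes, and at least 100 FPKM in 1 of them and in 2.85% of all genes. Bradi5g15830 stood above all 10 of its flanking genes. Its level of 86.9 FPKM was 76.4 times their median of 1.14 FPKM, and the highest of them, Bradi5g15850, had 30.4 FPKM. The genes listed directly beside it were Bradi5g15820, with 0.810 FPKM, and Bradi5g15835, with 9.17 FPKM.

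Around the 4 neighbouring copies the levels were higher, with a median of 5.59 FPKM over the 10 flanking genes. Bradi3g49250 was at 26.7 times and Bradi3g49260 at 32.3 times this median, and both were above 9 of the 10 genes. The exception was Bradi3g49230, which had 365.2 FPKM, at rank 178 of all listed genes, and lies 2 listed genes before Bradi3g49250. The gene between them, Bradi3g49240, was listed at 0. Bradi3g49280 had 9.16 FPKM and was above 6 of the flanking genes, and Bradi3g49270 with 1.92 FPKM was above 3 of them. On the other side, Bradi3g49290 had 4.33 FPKM and Bradi3g49300 was listed at 0, while Bradi3g49310 had 44.5 FPKM. Levels on both sides of these copies thus ranged from genes listed at 0 to 44.5 FPKM or more.

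Bradi3g47110 and Bradi3g47120 lay among genes of ordinary level. Their 10 flanking genes had a median of 1.17 FPKM, close to the 1.23 FPKM of all listed genes, 3 were listed at 0, and the highest, Bradi3g47157, had 22.2 FPKM. Bradi3g47110 was above 4 and Bradi3g47120 above 3 of them, and their levels were 0.194 and 0.126 times the median. The gene directly before them, Bradi3g47090, had 0.216 FPKM, a level between those of both copies, and the gene directly after them, Bradi3g47127, had 7.20 FPKM. Bradi3g48840 had 3.76 FPKM and was above 8 of its 10 flanking genes, at 6.84 times their median of 0.549 FPKM. On its sides, Bradi3g48830 had 0.179 FPKM and Bradi3g48845 was listed at 0. Bradi3g48870, with 12.0 FPKM, and Bradi3g48820, with 9.10 FPKM, were the flanking genes above it.

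**Figure D4:**
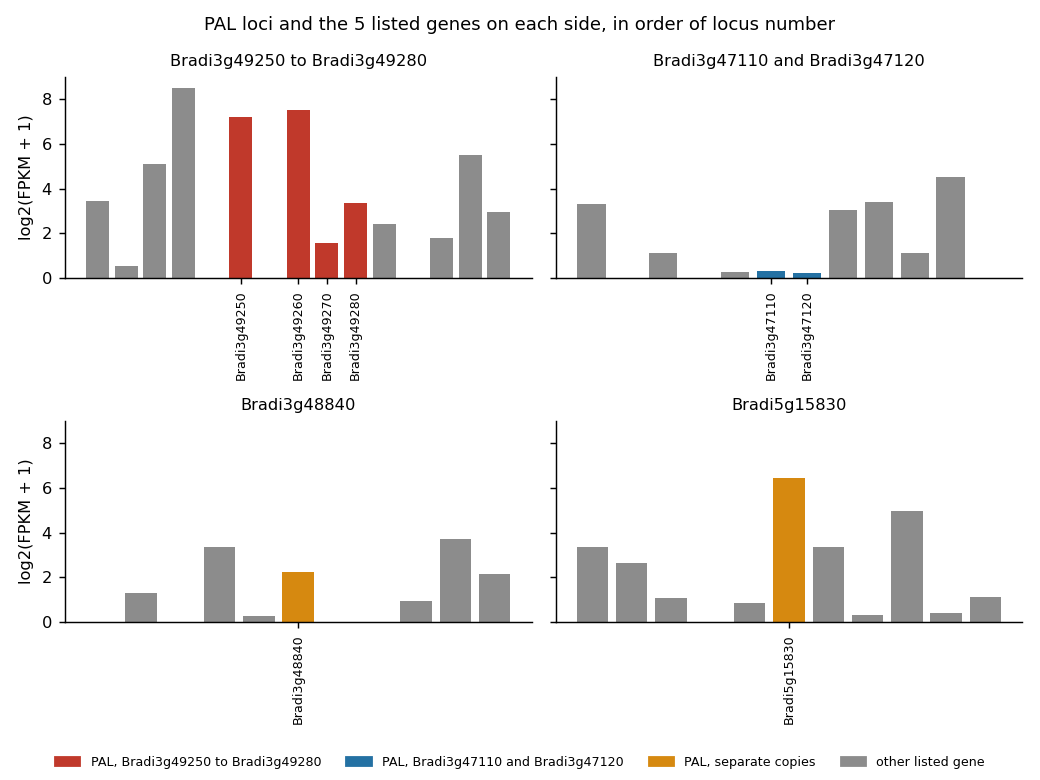
Levels as log2(FPKM + 1) (vertical axis) of the PAL genes (coloured bars) and of the 5 listed genes on each side (grey bars) at the 4 loci, in order of locus number, where a missing bar is a gene listed at 0. Bradi5g15830 is above all of its 10 flanking genes, Bradi3g49250 and Bradi3g49260 are above all of theirs but Bradi3g49230, and Bradi3g47110 and Bradi3g47120 are among the lowest bars above 0 in their panel.

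The 7 members on chromosome 3 lie within one stretch of 256 listed genes, from Bradi3g47110 to Bradi3g49280. Between Bradi3g47120 and Bradi3g48840 there are 204 listed genes, and between Bradi3g48840 and Bradi3g49250 there are 44. In this stretch Bradi3g49260 was the fifth highest gene and Bradi3g49250 was at rank 8. Bradi3g49280 was at rank 91, Bradi3g48840 at rank 121 and Bradi3g49270 at rank 140, while Bradi3g47110 and Bradi3g47120 were at ranks 182 and 188. The other 249 genes had a median of 3.37 FPKM, against 1.40 FPKM on chromosome 3 and 1.23 FPKM over all listed genes. Of these 249 genes, 62 or 24.9% were listed at 0, where 27.3% of chromosome 3 genes and 28.5% of all genes were. At least 100 FPKM was found in 10 of the 249 genes, or 4.02%, where 3.21% of chromosome 3 genes and 2.85% of all genes had it. The highest of them was Bradi3g47690, with 535.7 FPKM, followed by Bradi3g49230 and by Bradi3g48800, which had 238.1 FPKM.

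**Figure D5:**
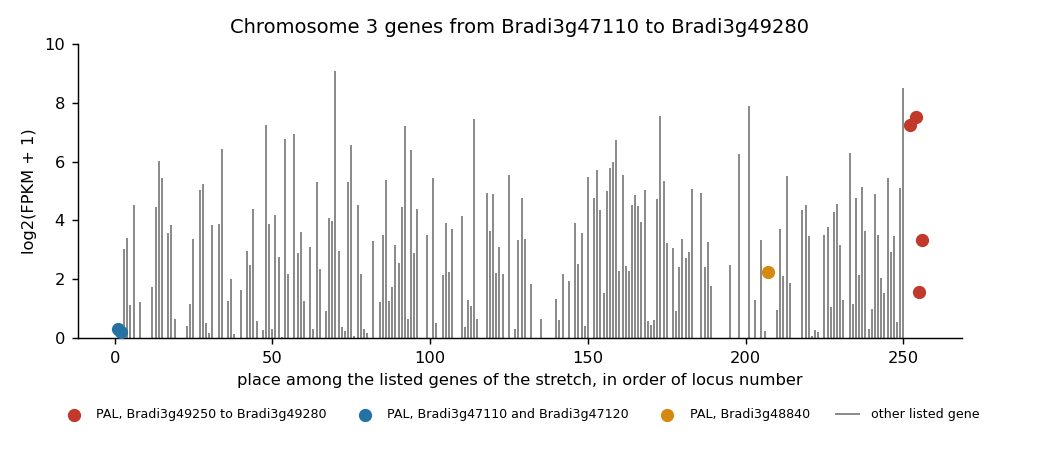
Levels as log2(FPKM + 1) (vertical axis) of the 256 listed genes from Bradi3g47110 to Bradi3g49280 on chromosome 3, in order of locus number (horizontal axis), with PAL genes as coloured points and the other genes as grey lines. Bradi3g47110 and Bradi3g47120 lie near 0 at the left end, and Bradi3g49250 and Bradi3g49260 reach 7.23 and 7.50 at the right end.

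Ranks within the chromosome placed the high members much as ranks over all genes did. On chromosome 5 the median was 0.968 FPKM over 3059 genes, of which 1.90% had at least 100 FPKM. On chromosome 3 it was 1.40 FPKM over 6971 genes, of which 3.21% had at least 100 FPKM. Bradi5g15830 was at rank 70 on chromosome 5, above 97.7% of its genes. On chromosome 3, Bradi3g49260 was at rank 103, above 98.5% of the genes, and Bradi3g49250 was at rank 129, above 98.1%.

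The table pairs no identifier with a gene name or function, and no annotation of this species was used. That the 8 identifiers are PAL genes, and the only ones of this species, was not checked here. Other genes of the phenylpropanoid pathway, markers of leaf and of lignifying cells, and the sequences of the PAL genes were therefore not analysed here, and the leaf label was not checked against marker genes. The gene methylation classes of the study were held here for chromosome 1 and unplaced scaffolds only, so the methylation class of the PAL genes was not analysed here.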

How the data were processed

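Leaf RNA of *B. distachyon* Bd21 was sequenced by the authors from stranded Illumina TruSeq libraries, and 1 library was used here. Per the labels and the methods, reads were processed with Trimmomatic 0.32, aligned with TopHat2 2.0.13 to genome version 2.1 supplied with a gene annotation, and quantified with Cufflinks 2.2.1. The authors deposited 1 FPKM value per gene, named by 1 transcript (transcript 2 for Bradi3g49250 and transcript 1 for the other members). Whether isoforms were summed is not stated. FPKM values hold no read counts, so no depth, interval or test was computed. The tables of the other species were not used.

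Members and lists were chosen with earlier results of these data known. Ranks, FPKM ratios, differences in log2(FPKM + 1), and the 5 listed genes on each side of each locus were obtained in Python 3.11.15 (pandas 2.3.3, NumPy 2.4.6, SciPy 1.17.1), with plots from Matplotlib 3.10.9. The functions were tested on simulated data. The order of genes is that of their locus numbers, which is also the order of the table, and 15 genes on unplaced scaffolds were left out of it. Named genes were the members and their flanking genes. Bradi3g49255 and the highest genes of the chromosome 3 stretch (Bradi3g47690 and Bradi3g48800) were named after their values were seen. Alternatives changed the genes ranked against, the pseudocount, the number of flanking genes and the members summed. The lists of pathway and marker genes planned by product name could not be drawn up, since no annotation of this species was used.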

Additional observations from a re-analysis of the deposited data

How the results depend on the processing

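No alternative tried could change the order of the 8 PAL genes. Each keeps the FPKM values or multiplies all of them by 1.48. This factor rescales the listed genes to the fixed sum of TPM values. The division of reads between copies was not varied. Ranked against genes above 0 FPKM, or against genes of at least 1 FPKM, 4 of 8 members were above the median, compared with 6 when all listed genes were used, and all 14 percentiles recomputed this way were lower than against all genes, since low genes were left out. With a pseudocount of 0.1 in place of 1, Bradi3g47110 and Bradi3g47120 differed by 0.40 on the log2 scale, compared with 0.10, and the median difference of all neighbouring genes was 2.86, compared with 1.59. The range of the 4 neighbouring copies was 6.48, compared with 5.96. The median of the flanking genes was 0.233 FPKM with 2 genes on each side and 1.40 FPKM with 10, compared with 1.18 FPKM. Over flanking genes above 0 it was 4.80 FPKM, where the median of all listed genes above 0 was 4.17 FPKM. Without Bradi3g49260, Bradi3g49250 made up 59.3% of the remaining family sum. The alternatives for the pathway list were not run, as no annotation of this species was used. No paired analysis was possible because there is 1 library. Low levels such as those of Bradi3g47110 and Bradi3g47120 are limited by sequencing depth, and the exact number of reads behind them is unknown here.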

Other observations

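Bradi3g49250 and Bradi3g49260 are a pair of genes of at least 100 FPKM with 1 gene listed at 0 between them. Over the numbered chromosomes, 903 genes reached 100 FPKM, and 162 of them, or 17.9%, had another such gene within 2 places, a count made after the values were seen. Bradi3g49230, with 365.2 FPKM, is within 2 places of Bradi3g49250. How often 3 genes of at least 100 FPKM lie this close together was not counted, so nothing is read from the 3 at this locus. What Bradi3g49230 encodes was not analysed here.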
